A study of Homo sapiens with 6 samples.

Results

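The subunit genes of RNA polymerases I, II and III were taken as every row of the expression table whose symbol is POLR1, POLR2 or POLR3 followed by letters and at most 1 final digit, with pseudogenes whose symbol ends in P and a digit left out. This gave 35 rows of 61806, under 34 symbols: 8 for polymerase I, 17 for polymerase II and 10 for polymerase III. POLR2J3 holds 2 rows, ENSG00000168255 and ENSG00000285437. The rule left out 12 pseudogenes. Expression was measured by RNA-seq of poly(A) RNA from 293T cells, an established human line of embryonic kidney origin, after lipid transfection with a plasmid labelled GFP-812 (3 libraries) or with a plasmid labelled GFP (3 libraries). The labels put no other difference between the groups, do not say what the number stands for, and give no time after transfection. The series title names truncated mutant NEK1 and ribosomal RNA biogenesis. Replicates were not stated to be separate cultures, so the p-values measure a spread that may be technical.

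RNA polymerase I transcribes the precursor of the large ribosomal RNAs in the nucleolus, RNA polymerase II transcribes messenger RNAs, and RNA polymerase III makes transfer RNAs, 5S ribosomal RNA and other short RNAs. Each enzyme has a catalytic core of a pair of large subunits on an assembly platform, and several small subunits are common to all of them. A stalk, and in polymerases I and III further subunits related to general initiation factors, complete the complexes. Ribosomal and transfer RNAs carry no poly(A) tail, so the values here are messenger RNA levels of the subunits and not the output of the enzymes.

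NEK1, read as the check of the labels, had 563, 518 and 494 FPKM (counts scaled to exonic length and library total) in the GFP-812 libraries, against 3.82, 3.99 and 3.91 FPKM in the GFP libraries. The libraries held 14255148 to 17613814 counts with GFP-812 and 16061389 to 16144531 with GFP. Of the 11 kidney markers examined, UMOD was at 0 in every library and 4 reached the minimum for testing. LRP2 averaged 1.66 FPKM with GFP-812 and 1.40 FPKM with GFP, and LHX1 1.68 FPKM with each. AQP1 averaged 0.447 FPKM with GFP-812 and 0.483 FPKM with GFP. PAX2 averaged 0.620 FPKM with GFP-812 and 0.397 FPKM with GFP, without overlap. None of the 4 passed in edgeR, DESeq2 or limma. An unadjusted p under 0.05 was reached by 2, LRP2 and PAX2, beside 16.1% of all genes. Of the 5 epithelial markers 4 were tested and none passed in edgeR, DESeq2 or limma. KRT8 was the 1 of them with an unadjusted p under 0.05 (16.1% of all genes). KRT8 averaged 10.5 FPKM with GFP-812 and 9.53 FPKM with GFP without overlap, as in 20.5% of all genes. KRT18 averaged 15.4 FPKM with GFP-812 and 14.7 FPKM with GFP. EPCAM, CDH1 and KRT19 were low, from 0.117 to 1.03 FPKM with GFP-812 and from 0.243 to 0.927 FPKM with GFP. NEFM, a neurofilament gene known to be expressed in this line, averaged 68.2 FPKM with GFP-812 and 56.0 FPKM with GFP. Of the 3 neuronal markers examined NEFM and NEFL rose in edgeR, beside 1.18% of all genes, and INA did not pass. NEFM also passed in DESeq2 (adjusted p = 4.31e-05) but not in limma (0.223). NEFL passed in edgeR alone (adjusted p = 0.0372, DESeq2 0.105, limma 0.373). The part of these markers in the results on subunits was not tested. Of 6 markers of other cells, the immune marker PTPRC had at most 1 count in a library, and 2 were tested. COL1A1 averaged 1.63 FPKM with GFP-812 and 1.56 FPKM with GFP, and ALB 0.167 FPKM with GFP-812 and 0.223 FPKM with GFP. Neither passed in edgeR, DESeq2 or limma. Fewer cells expressing a gene and less RNA per cell cannot be told apart in these bulk libraries.

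The first sequences below are shown because they bear on how far the counts of single rows can be trusted. POLR2J, which encodes a platform subunit of polymerase II, has near-identical copies on chromosome 7. The coding starts of POLR2J and of 2 copies, from GENCODE 29 transcripts, read as follows, with capitals for the 3 bases of POLR2J that both copies lack and for the 2 substitutions in POLR2J2.
POLR2J: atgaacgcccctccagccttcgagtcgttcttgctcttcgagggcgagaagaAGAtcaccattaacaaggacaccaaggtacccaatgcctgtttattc
POLR2J3: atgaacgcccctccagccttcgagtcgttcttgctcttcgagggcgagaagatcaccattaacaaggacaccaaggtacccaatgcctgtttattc
POLR2J2: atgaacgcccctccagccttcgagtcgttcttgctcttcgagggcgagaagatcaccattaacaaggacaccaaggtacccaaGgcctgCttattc
Of all 100-base windows in the transcripts of each gene, 23.6% in POLR2J, 79.7% in POLR2J2, 44.8% and 28.7% in the 2 POLR2J3 rows and 5.55% in POLR2J4 were also found in another of these genes. The counts of POLR2J and its copies are therefore uncertain, since a read from a shared stretch also matches another of these genes.

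The other pair of sequences lies at the starts of POLR3C and POLR3GL, the polymerase III genes with the largest differences in each direction. Both are on the forward strand of chromosome 1, 120287 bases apart, and each lies head to head with a gene on the opposite strand. The bases are the forward strand of GRCh38.p14 from the RefSeq promoter table, at chr1:145824078-145824175 between RNF115 and the coding transcripts of POLR3C as GENCODE 29 draws them, and at chr1:145964583-145964689 between ANKRD34A and POLR3GL. In the deposited table RNF115 ends at 145824095 and POLR3C starts at 145824053, so the first stretch lies within the POLR3C span over which counts were made. Capitals mark GC boxes (GGGCGG, either strand) and CCAAT boxes (CCAAT, either strand).
POLR3C and RNF115: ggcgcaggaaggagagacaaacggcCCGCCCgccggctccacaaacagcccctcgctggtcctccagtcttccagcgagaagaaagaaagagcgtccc
POLR3GL and ANKRD34A: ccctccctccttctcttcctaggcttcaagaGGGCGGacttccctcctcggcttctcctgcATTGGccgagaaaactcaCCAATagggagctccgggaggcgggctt
The POLR3C stretch holds 1 GC box and no CCAAT box, and the POLR3GL stretch holds 1 GC box and 2 CCAAT boxes. Among 35116 RefSeq promoters, 42.6% hold a GC box and 32.0% a CCAAT box in their 250 upstream bases. None of TATAAA (10.7% of promoters), CCGGAAG (8.52%), CACGTG (6.34%) and the palindromic NRF1 motif (1.03%), searched on both strands, occurs in either printed stretch. The full 250 bases in the promoter table, to which these shares refer, hold CCGGAAG and CACGTG 1 time each for POLR3C and none of the 4 for POLR3GL. These matches describe the letters and are not evidence that a factor binds.

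Most subunit genes kept nearly the same messenger RNA level with either plasmid. The rows of the symbol rule that passed the test were 1 structural subunit of polymerase III, 1 of polymerase II and 1 pseudogene copy. CRCP, a polymerase III subunit gene outside the symbol rule, also fell in edgeR (log2 fold change -0.29, edgeR adjusted p = 0.0216). It did not pass in DESeq2 (adjusted p = 0.0629) or limma (0.228), and is given below with the factors. All 35 rows passed the filter on low counts. With edgeR's quasi-likelihood test and adjustment over all 16834 genes tested, 1 of the 35 rose (POLR2I) and 2 fell (POLR3C and POLR2J4). Without GFP replicate 3 the numbers were 2 and 4, without GFP replicate 1 or 2 they were 0 and 2, and without GFP-812 replicate 2 or 3 they were 0 and 1. Over all genes tested 1.18% rose and 2.67% fell, 3.84% in all, against 8.57% of the subunit rows, which is 3 rows and was not tested as a difference. An unadjusted p under 0.05 was reached by 6 of the 35 rows (16.1% of all genes), and in 6 rows, 3 higher and 3 lower with GFP-812, the scaled counts of the groups did not overlap (17.1%, against 20.5% of all genes). These shares lie near those of all genes. In 27 of the 35 rows the 95% interval of the fold change stayed within 1.25-fold in both directions. The share of all genes within that bound was not determined, so such counts are not read as a trait of subunit genes. Over all genes tested the median absolute log2 fold change was 0.10. DESeq2 called 2 of the 35 rows (2.41% of all genes), POLR3C and POLR2J4, and limma on log2(FPKM + 1) called none (0.0238% of all genes).

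**Figure D1:**
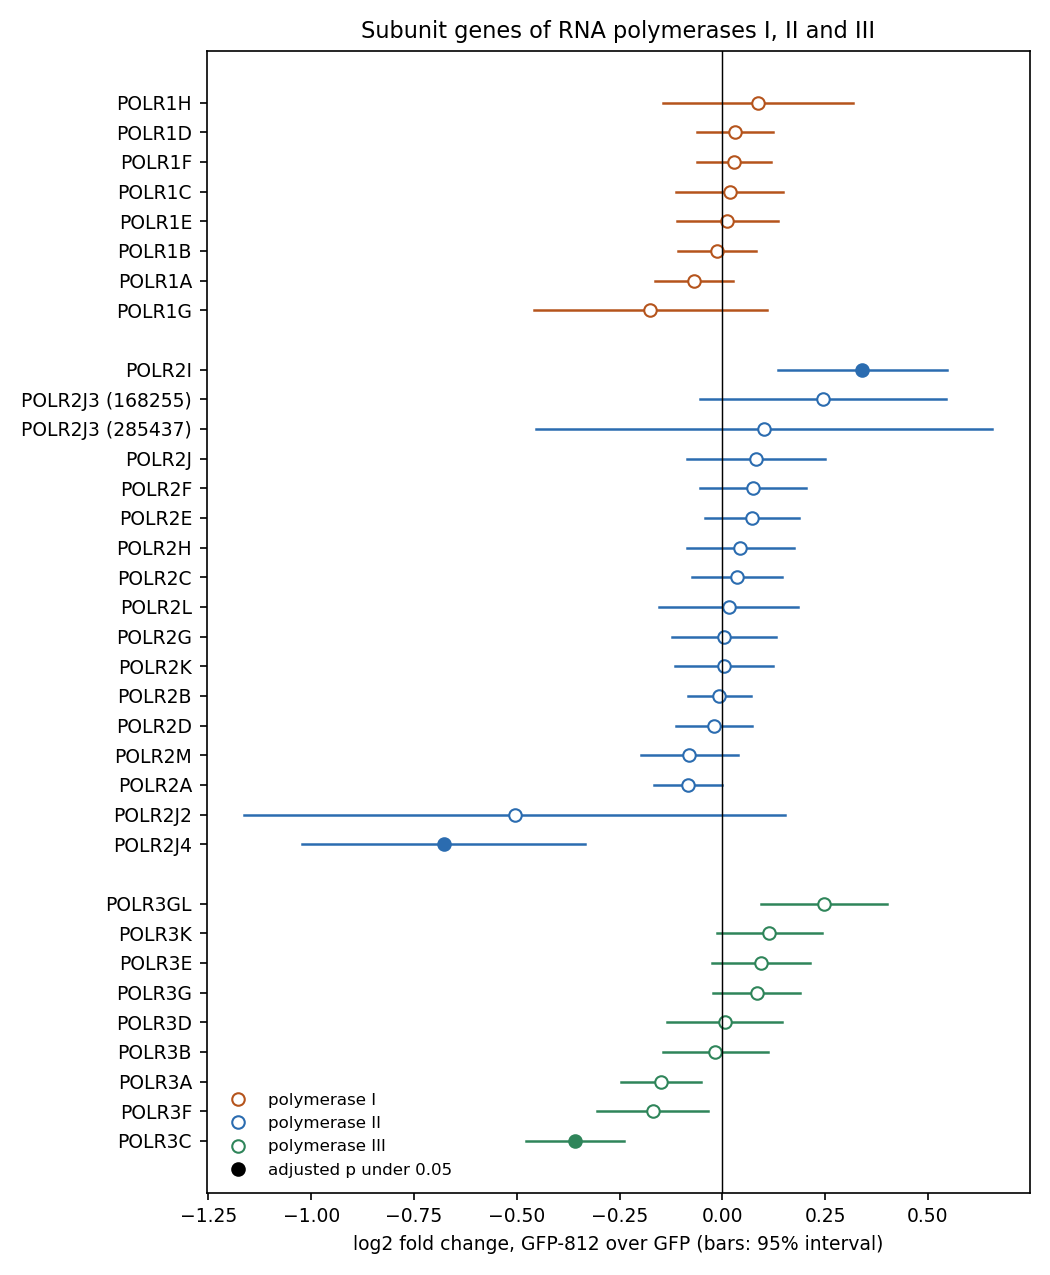
Log2 fold change (GFP-812 over GFP, horizontal axis) of 34 of the 35 subunit rows, sorted within polymerases I, II and III; bars are 95% intervals and filled points have an edgeR adjusted p under 0.05. The polymerase I points lie between -0.17 and 0.09, and the filled points are POLR2I at 0.34, POLR2J4 at -0.68 and POLR3C at -0.36.

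The summed levels of the rows named for each enzyme were close between the groups. Rows were grouped by symbol, so shared subunits named POLR2 count only for polymerase II, and POLR1C and POLR1D only for polymerase I. CRCP is in none of the sums. Polymerase I genes took 667 ± 3.06 CPM (counts scaled to the library total) with GFP-812 and 673 ± 14.6 CPM with GFP (SD, n = 3 each). Polymerase II genes took 1315 ± 17.0 CPM with GFP-812 and 1334 ± 24.8 CPM with GFP. Polymerase III genes took 595, 562 and 574 CPM in the GFP-812 libraries and 594, 595 and 602 in the GFP libraries, with a 95% Clopper-Pearson interval of 550 to 574 for GFP-812 replicate 2, the lowest, and of 590 to 614 for GFP replicate 3, the highest. The groups overlapped in all 3 sums. Median log2 fold changes were 0.02 for polymerase I and 0.02 for polymerase II, and -0.0011 for polymerase III, beside 0.0069 over all genes tested. These intervals cover counting error only.

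Within each enzyme the genes spanned a wide range of levels per length. Polymerase II genes had a median of 18.2 FPKM with GFP-812 and 16.1 FPKM with GFP, polymerase I genes 10.1 FPKM with GFP-812 and 10.0 FPKM with GFP, and polymerase III genes 7.20 FPKM with GFP-812 and 7.80 FPKM with GFP. Without the POLR2J2, POLR2J3 and POLR2J4 rows the polymerase II median was 24.4 FPKM with GFP-812 and 25.0 FPKM with GFP. The highest was POLR2B, the second-largest polymerase II subunit, at 65.0 ± 1.42 FPKM with GFP-812 and 65.9 ± 1.24 FPKM with GFP (SD, n = 3 each). Leaving aside the copies of POLR2J, the lowest was POLR1G at 2.53 ± 0.320 FPKM with GFP-812 and 2.88 ± 0.223 FPKM with GFP. FPKM here divides by the whole exonic size of a gene. That size was a median of 1.55 times, and up to 6.52 times in POLR3C, the longest transcript labelled protein coding in GENCODE 29. For POLR2A, the largest polymerase II subunit, that transcript has only 2083 bases. The label may thus not mark the full coding transcript of every gene. Which transcripts the counts came from was not tested, so levels are compared between genes per exonic base only.

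**Figure D2:**
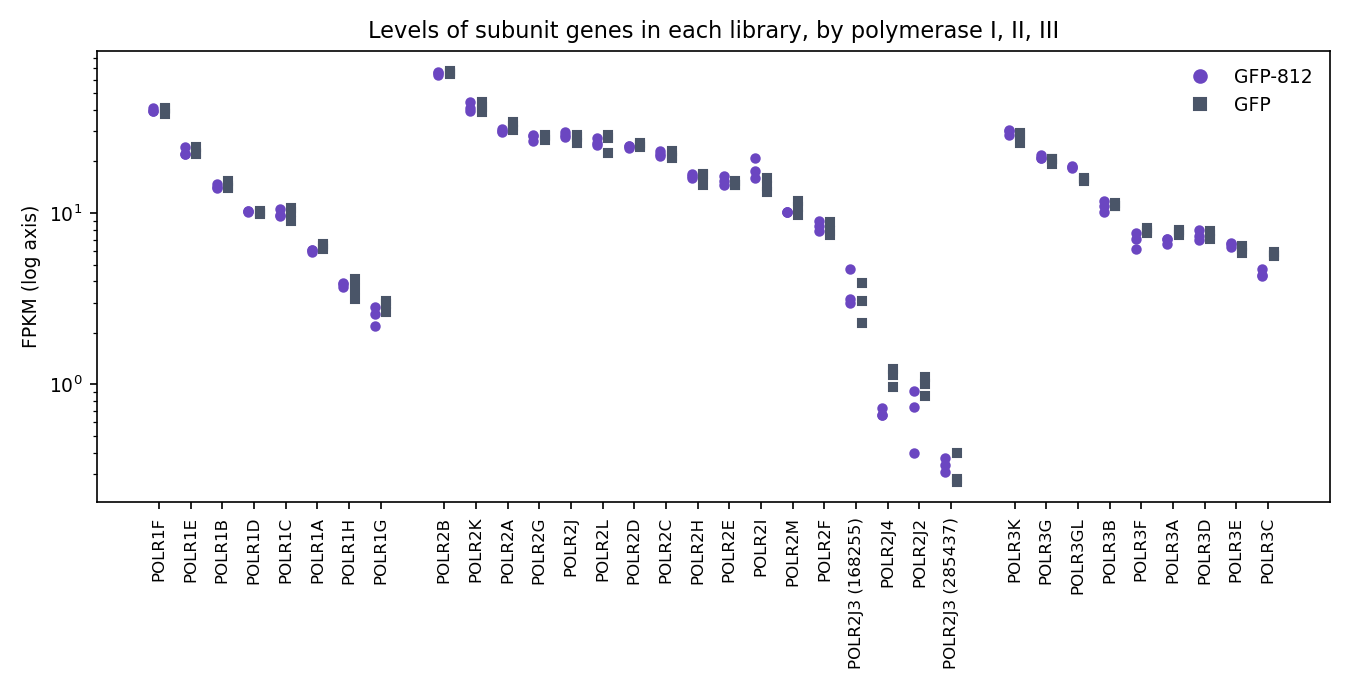
FPKM (vertical log axis) of 34 subunit rows in each of the 6 libraries, GFP-812 as circles and GFP as squares, ordered by mean level within polymerases I, II and III. Levels run from under 1 FPKM in copies of POLR2J to a mean of 65.9 FPKM in POLR2B with GFP, and in most genes circles and squares lie at the same height.

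None of the 8 polymerase I genes passed in edgeR (3.84% of all genes), also at an unadjusted p under 0.05 (16.1%). None passed in DESeq2 (2.41%) or in limma (0.0238%). With 8 genes a count of 0 is not read as a trait of polymerase I. The largest subunit, POLR1A, had 5.91, 6.12 and 6.09 FPKM with GFP-812 and 6.45, 6.56 and 6.17 FPKM with GFP. Its log2 fold change was -0.07 (95% interval -0.16 to 0.03, edgeR adjusted p = 0.491). The second-largest subunit, POLR1B, had 14.73, 14.01 and 14.27 FPKM with GFP-812 and 15.30, 14.07 and 14.40 FPKM with GFP, values that overlap, with a log2 fold change of -0.01 (interval -0.11 to 0.08).

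POLR1C and POLR1D form the assembly platform that polymerase I shares with polymerase III, and their log2 fold changes were 0.02 (interval -0.11 to 0.15) and 0.03 (interval -0.06 to 0.12). POLR1C overlaps XPO5 and YIPF3 on the opposite strand, which had log2 fold changes of -0.02 and 0.05. POLR1F, the stalk subunit through which the initiation factor RRN3 binds the enzyme, had 39.6, 41.2 and 39.6 FPKM with GFP-812 and 41.1, 40.3 and 37.8 FPKM with GFP (log2 fold change 0.03). POLR1E and POLR1G form a heterodimer related to the initiation factor TFIIF. POLR1E was at 0.01 on the log2 scale, whereas POLR1G was at -0.17 with a wide interval (-0.46 to 0.11) on 109 to 158 counts per library. POLR1H, the subunit for RNA cleavage, was at 0.09 (interval -0.14 to 0.32). In 7 of the 8 genes the interval stayed within 1.25-fold, with POLR1G as the exception.

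Of the 17 polymerase II rows 1 rose and 1 fell (11.8%, against 3.84% of all genes), and the same 2 rows alone had an unadjusted p under 0.05 (16.1% of all genes). POLR2I encodes a small subunit at the jaw of the enzyme that is known for its part in transcription fidelity. It had 16.10, 17.63 and 20.97 FPKM with GFP-812 and 14.38, 13.28 and 16.10 FPKM with GFP, so that the lowest GFP-812 library and the highest GFP library tied in FPKM. On scaled counts all GFP-812 libraries were above all GFP libraries. The log2 fold change was 0.34 (SE 0.103, edgeR adjusted p = 0.046). The call was lost without GFP-812 replicate 2 (adjusted p = 0.122), GFP-812 replicate 3 (0.23 on the log2 scale, adjusted p = 0.401), GFP replicate 1 (0.152) or GFP replicate 2 (0.217), and in DESeq2 (0.143). TBCB, a tubulin cofactor gene that overlaps POLR2I on the opposite strand, was at 0.20 (interval 0.05 to 0.35, edgeR adjusted p = 0.145). Whether the counting used strand is not given in the sources used here, and the part of shared reads in this result was not tested.

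The largest subunit, POLR2A, whose tail coordinates RNA processing, had 31.0, 30.1 and 29.6 FPKM with GFP-812 and 32.3, 34.1 and 30.5 FPKM with GFP. Each GFP-812 library but 1 was below all GFP libraries, and the log2 fold change was -0.08 (interval -0.17 to 0.0004, edgeR adjusted p = 0.313). Without GFP replicate 3 its adjusted p was 0.0346, with a log2 fold change of -0.12. POLR2B, which completes the active centre, was at -0.0071 with the smallest standard error of all rows, 0.0381.

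The subunits that all 3 enzymes share, POLR2E, POLR2F, POLR2H, POLR2K and POLR2L, lay between 0.0042 (POLR2K) and 0.08 (POLR2F) on the log2 scale, and none passed the test. The platform subunits POLR2C and POLR2J were at 0.04 and 0.08, and the stalk subunits POLR2D and POLR2G at -0.02 and 0.0042. POLR2M, which encodes a protein that binds the enzyme and makes it depend on the Mediator complex, was at -0.08 (interval -0.20 to 0.04). POLR2L had 25.7, 27.5 and 25.1 FPKM with GFP-812 and 27.3, 22.4 and 28.4 FPKM with GFP, a spread within groups that covers the difference between them.

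The copies of POLR2J were low and uneven. POLR2J4, a pseudogene by its description in the table (chr7:43940895-44019175, reverse strand), had 68, 67 and 76 counts with GFP-812 and 101, 118 and 128 counts with GFP. These are 0.73, 0.66 and 0.66 FPKM with GFP-812 and 0.96, 1.13 and 1.23 FPKM with GFP, and the groups did not overlap. The log2 fold change was -0.68 (SE 0.172, edgeR adjusted p = 0.0124), and the call was lost without GFP-812 replicate 2 (adjusted p = 0.0779) or replicate 3 (0.0757). POLR2J2 had 22, 13 and 34 counts with GFP-812 and 34, 29 and 37 counts with GFP (log2 fold change -0.50, interval -1.16 to 0.15). The POLR2J3 rows were at 0.24 (interval -0.05 to 0.54) and 0.10 (interval -0.45 to 0.66). With the rows of POLR2J2, POLR2J3 and POLR2J4 set aside, 13 polymerase II rows remained, of which 1 rose and none fell, and 12 had intervals within 1.25-fold.

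Polymerase III held the clearest difference of all the subunits. POLR3C, POLR3F and POLR3G or its alternative POLR3GL form a peripheral heterotrimer that polymerase III uses to open promoters together with its initiation factor. POLR3C (chr1:145824053-145844402, forward strand) had 4.35, 4.27 and 4.70 FPKM with GFP-812 and 5.92, 5.72 and 5.59 FPKM with GFP, 4.44 ± 0.229 against 5.74 ± 0.166 (SD, n = 3 each). Every GFP-812 library was below every GFP library. The log2 fold change was -0.36 (SE 0.0596, edgeR adjusted p = 6.72e-05), 22.0% less, and it stayed between -0.40 and -0.33 whichever library was left out, with adjusted p of 1.04e-05 to 0.00636. DESeq2 gave 4.87e-05 and limma on log2(FPKM + 1) gave 0.178.

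RNF115, a ubiquitin ligase gene, runs head to head with POLR3C, and the ends of the 2 genes overlap in the table. It had 5.75, 5.57 and 5.62 FPKM with GFP-812 and 6.49, 6.08 and 6.04 FPKM with GFP, also without overlap, but at -0.12 on the log2 scale it did not pass the test (edgeR adjusted p = 0.266). POLR3C was counted over 12068 exonic bases, and its longest transcript labelled protein coding in GENCODE 29 has 1851 bases. Much of the counted sequence therefore lies outside that transcript, and the coding and other transcripts were not told apart.

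The partners of POLR3C in the heterotrimer did not move with it as a group. POLR3F had 7.65, 7.05 and 6.19 FPKM with GFP-812 and 7.86, 7.60 and 8.18 FPKM with GFP, at -0.17 on the log2 scale (interval -0.31 to -0.03, edgeR adjusted p = 0.165). GFP-812 replicate 3 was the lowest of the 6, and replicate 1 lay within the GFP range. POLR3GL, the form found in most tissues, had 18.75, 18.46 and 18.28 FPKM with GFP-812 and 15.29, 15.75 and 16.09 FPKM with GFP. All GFP-812 libraries were above all GFP libraries, at 0.25 on the log2 scale (SE 0.0768), but the edgeR adjusted p was 0.0531, beyond the threshold. It was 0.0418 without GFP replicate 3 and reached 0.208 without another library. POLR3G, the form known from stem and tumour cells, had 21.7, 21.1 and 20.9 FPKM with GFP-812 and 19.3, 20.6 and 20.8 FPKM with GFP. Its groups did not overlap either, at 0.08 on the log2 scale (interval -0.02 to 0.19, adjusted p = 0.456).

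The level of POLR3G over that of POLR3GL was 1.16, 1.14 and 1.14 with GFP-812 and 1.26, 1.31 and 1.29 with GFP, both per length in FPKM. The groups did not overlap, and the mean log2 ratio differed by -0.16, with an exact 2-sided permutation p of 0.1, the smallest that 3 against 3 libraries can give. The level of POLR3GL over that of POLR3C was 4.31, 4.32 and 3.89 with GFP-812 and 2.58, 2.75 and 2.88 with GFP. The second ratio was chosen after the values of single genes had been seen and has no test, and both restate those values.

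**Figure D3:**
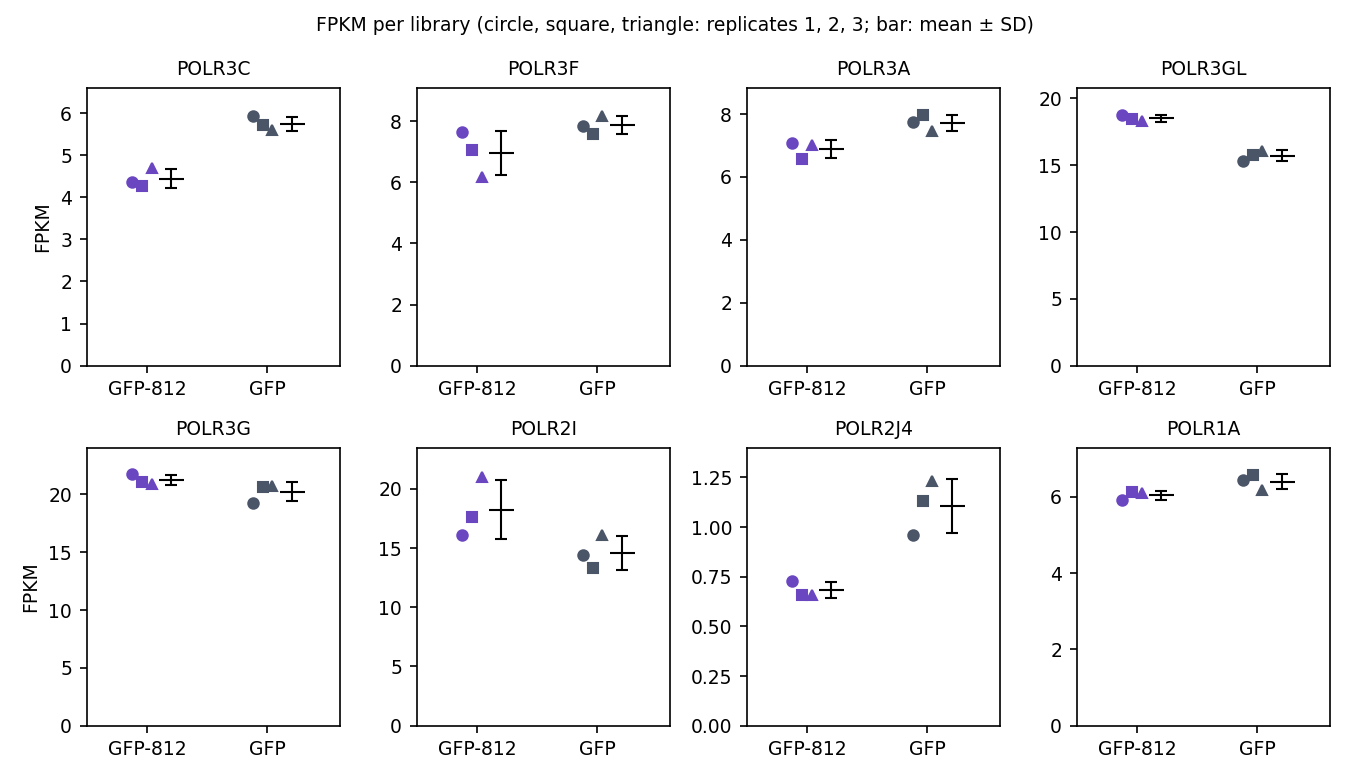
FPKM per library (vertical axes from 0) of 8 subunit genes, GFP-812 left and GFP right; circle, square and triangle are replicates 1, 2 and 3, and the bar is the mean ± SD. POLR3C lies between 4.27 and 4.70 FPKM with GFP-812 and between 5.59 and 5.92 FPKM with GFP, POLR3GL is higher in every GFP-812 library, and the POLR2I groups tie at 16.10 FPKM.

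POLR3A, the largest polymerase III subunit, had 7.09, 6.57 and 7.02 FPKM with GFP-812 and 7.73, 7.96 and 7.45 FPKM with GFP. The groups did not overlap, and the log2 fold change was -0.15 (interval -0.25 to -0.05), with an edgeR adjusted p of 0.0705 that fell to 0.0159 without GFP replicate 3. POLR3B, with which it forms the active centre, was at -0.02 (interval -0.14 to 0.11). POLR3D and POLR3E, a heterodimer related to TFIIF, were at 0.0058 and 0.10, and POLR3K, which cleaves RNA at termination, was at 0.11. In all, 4 of the 10 polymerase III genes had an unadjusted p under 0.05 (POLR3C, POLR3GL, POLR3A and POLR3F), 2 were higher and 2 lower without overlap between groups, and 8 had intervals within 1.25-fold. Over all genes 16.1% had such a p and 20.5% did not overlap. Whether polymerase III genes differ more than those of the other enzymes was not tested.

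The log2 fold changes ran with the exonic size of the genes. Of the subunit rows under 2000 exonic bases, 7 of 7 had a fold change above 0, where 62.0% of all genes of that size did. Of these, POLR2K and POLR2G were at 0.0042 each and turned to -0.0084 and -0.0083 when libraries were scaled by their totals alone. From 2000 to under 5000 bases 8 of 11 rows were above 0 (55.2% of all genes), and from 5000 bases on 6 of 17 (46.2% of all genes). Across the 35 rows Pearson's r between log2 size and log2 fold change was -0.31 and Spearman's rho -0.39, and without POLR2J2, POLR2J3 and POLR2J4 they were -0.55 and -0.49 over 31 rows. Over all 16834 genes they were -0.09 and -0.12, so short genes tended higher with GFP-812 in the whole data set. These are correlations across genes measured in the same 6 libraries. POLR2I has 1137 and POLR3GL 1811 exonic bases, and with a per-library correction for exonic size they were at 0.29 (edgeR adjusted p = 0.101) and 0.20 (adjusted p = 0.124) on the log2 scale. The POLR2I call was lost at a fold change near the uncorrected 0.34.

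**Figure D4:**
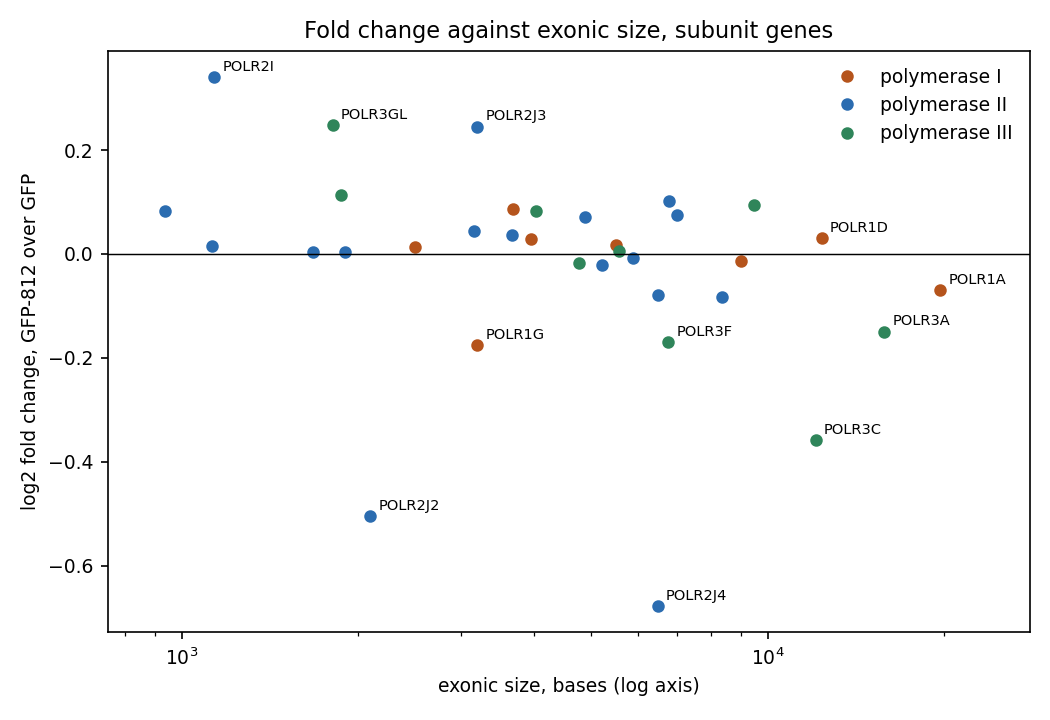
Log2 fold change (GFP-812 over GFP, vertical axis) of 34 of the 35 subunit rows against exonic size in bases (horizontal log axis), coloured by polymerase. All 7 rows under 2000 bases lie above 0, POLR2K and POLR2G by 0.0042 and not with scaling by library totals, and 6 of the plotted rows of at least 5000 bases do.

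Other genes of the 3 machineries were read from lists, beside the 3.84% of all genes that passed. Of 8 factors that start or end polymerase I transcription, 1 rose and 2 fell, with a median log2 fold change of -0.07. RRN3, which brings polymerase I to the promoter, had 27.6, 27.5 and 28.7 FPKM with GFP-812 and 32.6, 31.8 and 31.4 FPKM with GFP (-0.18 on the log2 scale, edgeR adjusted p = 0.018). TAF1D, a subunit of the selectivity factor SL1, was at -0.18 (adjusted p = 0.00321). Both calls were among those lost without GFP-812 replicate 2 or 3, where 0 of the 8 fell. Without GFP replicate 1 or GFP-812 replicate 1 the number that fell was 1, and without GFP replicate 2 it was 3. CAVIN1, known both as a caveolar protein and as a polymerase I release factor, was at 0.27 (edgeR adjusted p = 0.034), and 0 of the 8 rose without GFP-812 replicate 1 or 2 or without GFP replicate 1 or 2. POLR1F, the subunit that RRN3 contacts, was at 0.03 in the same fit.

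Of 24 general factors of polymerase II 1 fell, the elongation factor SUPT6H, at -0.21 (edgeR adjusted p = 0.00144), and the median was -0.01. Without GFP-812 replicate 1 the number was 2, and without GFP replicate 3 it was 3, with 1 risen. Of 18 polymerase III factors 2 fell, with a median of -0.07. GTF3C1, the largest subunit of the DNA-binding factor TFIIIC, had 12.9, 12.4 and 12.2 FPKM with GFP-812 and 14.7, 14.5 and 14.1 FPKM with GFP (-0.20, adjusted p = 0.00421). CRCP encodes a polymerase III subunit but lies outside the symbol rule. It had 8.76, 7.61 and 9.29 FPKM with GFP-812 and 10.97, 10.17 and 10.45 FPKM with GFP (-0.29, edgeR adjusted p = 0.0216). CRCP did not pass in DESeq2 (adjusted p = 0.0629) or limma (0.228). Without GFP-812 replicate 2 none of the 18 fell in edgeR, without GFP-812 replicate 3 or GFP replicate 1 the number was 1, without GFP-812 replicate 1 it was 3, and without GFP replicate 3 it was 5, with 1 risen. None of 16 polymerase assembly factors passed in edgeR, DESeq2 or limma, and 4 had an unadjusted p under 0.05. That p was reached by 4 of the 8 polymerase I factors, 6 of the 24 polymerase II factors and 8 of the 18 polymerase III factors, beside 16.1% of all genes. The smallest p among assembly factors was that of the chaperone subunit PFDN2, at 0.14 on the log2 scale (edgeR adjusted p = 0.227), and without GFP replicate 3 the number risen was 1. POLRMT, the mitochondrial polymerase, was at 0.17 (adjusted p = 0.238).

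Of the 34 subunit symbols, 18 overlap another gene with at least 100 counts over the 6 libraries in the deposited coordinates, mostly on the opposite strand. Reads of opposite-strand pairs cannot be told apart if strand was not used. The POLR2J3 rows overlap each other on the same strand, as POLR2M does GCOM1. Strand would not separate the reads of these.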

How the data were processed

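The authors deposited 1 table with raw counts per gene and library and, per the file headers, FPKM beside them; dividing each count by exonic size and library total returned 100% of the FPKM values within 0.0051. The submitters' processing notes name FastQC 0.10.1, cutadapt 1.9.1, HISAT2 2.2.1, HTSeq 0.6.1 and hg38; neither strand use nor the annotation release is given in the sources used here. Groups and replicate numbers came from the sample titles. Counts were tested with edgeR 4.0.16 in R 4.3.3 (filterByExpr, TMM, quasi-likelihood test, group as the only term), 2-sided, with Benjamini-Hochberg adjustment over 16834 genes and a threshold of 0.05; standard errors were derived from the F statistic. No row lacked a gene. Alternatives were DESeq2 1.42.0 without independent filtering, limma 3.58.1 on log2(FPKM + 1), other scalings, filters, an exonic size correction (a spline per library), a replicate block and leaving out each library. The fits were tested on simulated data. Libraries of a group differed by more than sampling noise (chi-square per gene 2.12 to 4.01), so none was counted as a repeat of another. The precision of a value depends on the gene's own counts and on the spread between 3 libraries. With 14255148 to 17613814 counts per library, standard errors of the subunit rows ran from 0.0381 to 0.329 on the log2 scale. 1 subunit gene is counted in every total but not reported here by itself; all other subunit rows were described, and from the lists the genes past the threshold or, with none, that of smallest p; members and lists were chosen with earlier results of these data known. Nothing in the labels ties GFP-812 to GFP libraries of the same number. Promoter bases are those of RefSeq; 24 of 34 symbols were in its table.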

Additional observations from a re-analysis of the deposited data

How the results depend on the processing

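The fall of POLR3C held in every alternative but limma. None of the 8 polymerase I subunit genes passed in any, beside 3.84% of all genes in the main fit. Median-of-ratios scaling changed no call of a subunit. With library totals alone 0 subunits rose, 2 polymerase III subunits and 4 polymerase III factors fell, and POLR1E, POLR2K, POLR2G and POLR3D turned to -2.3e-05, -0.0084, -0.0083 and -0.0066. DESeq2 called 96 genes risen, among them 0 subunits and 0 polymerase I factors, and 1 polymerase III factor fallen. Limma called 3 genes risen and 1 fallen, none of them subunits or factors (0 in each list), with those 4 genes at -0.00042, -0.0060, -0.010 and -0.0079. Without a filter 0 subunits rose (POLR2K -0.00076, POLR2G -0.00069); with a minimum mean FPKM of 1, 2 rose, 1 of polymerase III, and 1 fell, 0 of polymerase II (POLR2B 0.00026). With the exonic size correction 0 subunits and 0 polymerase I factors rose, the polymerase II median was -0.014, and POLR1E, POLR2K, POLR2G, POLR3D and POLR2L were at -0.021, -0.042, -0.037, -0.0033 and -0.040. The cause of these shifts was not tested.

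The labels do not say whether same-numbered libraries share more than a number. Their deviations from the group means correlated at 0.032, -0.01 and 0.0061, and those of libraries with unlike numbers at -0.032 to 0.026. Whether they shared a batch was not tested. With a replicate block 266 genes rose and 511 fell, and 2 subunits rose, POLR3GL (1 of polymerase III) being added. With the replicate block and the size correction 0 subunits rose, 2 polymerase III subunits, 4 polymerase III factors fell, 1 polymerase II factor rose, the polymerase II median was -0.014, and POLR1E, POLR2K, POLR2G, POLR3D and POLR2L were at -0.022, -0.038, -0.037, -0.0036 and -0.037.

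Leaving out each library gave 62 to 507 genes risen and 147 to 810 fallen; 0 to 2 subunits risen and 1 to 4 fallen (polymerase II 0 to 1 and 0 to 2, polymerase III 0 to 1 and 1 to 2); polymerase I factors 0 to 1 and 0 to 3, polymerase II factors 0 to 1 and 1 to 3, polymerase III factors 0 to 1 and 0 to 5, and 0 to 1 assembly factors risen. Medians ran from 6.7e-05 to 0.054 (polymerase II) and -0.031 to 0.051 (polymerase III). Log2 fold changes that changed sign ran from -0.072 to 0.038 (POLR3B), -0.022 to 0.016 (POLR2B), -0.0079 to 0.19 (POLR1H), -0.0073 to 0.056 (POLR1F), -0.043 to 0.026 (POLR1B), -0.033 to 0.052 (POLR1E), -0.049 to 0.061 (POLR2K), -0.024 to 0.082 (POLR2H), -0.032 to 0.036 (POLR2G), -0.044 to 0.051 (POLR3D), -0.056 to 0.074 (POLR1C) and -0.086 to 0.082 (POLR2L).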

Other observations

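Of the 12 pseudogenes that the symbol rule left out, none reached the minimum for testing. POLR2MP1 had 26 and POLR2KP1 15 counts over the 6 libraries, and POLR3GP2 and POLR3GP1 had 7 and 6. POLR3DP1 had 1, and the other pseudogenes were at 0.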
